A study of Mus musculus with 8 samples.

Results

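A set of 32 genes of cholesterol and fatty acid synthesis and their regulators was examined in the dorsal dentate gyrus of mice that lack Cav3.1, a calcium channel of the T type. The members were picked by gene symbol, and where a gene had several probes the one with the brightest mean spot intensity over the 8 arrays was kept. Of the 32 genes, 29 had a probe on the array and 28 were bright enough to be tested, out of 21150 probes tested in all. Acat2, Fdps and Nr1h2 matched no probe, and the spots of Pmvk, the phosphomevalonate kinase, were above the blank level on 1 of the 8 arrays, with log2 intensities of 5.74 ± 0.033 (WT) and 5.77 ± 0.021 (Cav3.1 KO; SD, n = 4 each). RNA came from male C57BL/6J mice 8 to 12 weeks old, with 4 single-colour arrays from wild-type animals (WT) and 4 from animals of the genotype Cav3.1 KO. The labels describe no allele, no promoter and no pooling, and they leave it unsaid whether each array had an animal of its own. The p-values then rest on the spread among these 8 samples alone, part of which may be technical. RNA was taken from dissected tissue and not from sorted cells, so fewer cells of a type and less RNA per cell cannot be told apart.

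Brain cholesterol is made within the brain, because lipoproteins of the blood do not cross the blood-brain barrier, and in the adult astrocytes and oligodendrocytes make much of it. The pathway is switched on by the sterol regulatory element-binding proteins (SREBP). These are held in the endoplasmic reticulum by the escort protein SCAP and the INSIG proteins while sterols are plentiful, and are released, cut and sent to the nucleus when sterols run low. The liver X receptors (LXR) sense oxysterols, the oxidised products of cholesterol, and raise the cholesterol exporters ABCA1 and ABCG1 as well as Srebf1, which drives fatty acid synthesis. The members were therefore sorted into 20 SREBP targets of the cholesterol pathway, 2 LXR targets, 4 targets that both share, 3 SREBP regulators, 2 LXR receptors and the isoprenoid branch enzyme Ggps1.

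The promoters of 4 members that the values turn on are shown, with the 250 bases before an annotated RefSeq start of GRCm38.p6, read 5′ to 3′ along the gene. Capitals mark every match, on either strand (a match on the other strand reads as its complement in reverse), to the core of the sterol regulatory element (CACCCCAC), the NF-Y box (CCAAT) or the Sp1 box (GGGCGG). NF-Y and Sp1 are the usual partners of SREBP at its target promoters. No capitals were due to the LXR direct repeat (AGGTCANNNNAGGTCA), which was searched as well. In these 4 genes 0 matches overlapped each other. Hmgcs1 (chr13:119690101-119690350, plus strand) is shown because it holds the sterol element core, at 136 to 129 bases before the start. Dhcr7 (chr7:143829964-143830213, plus strand, the start with most matches of 3 annotated) and Nsdhl (chrX:72918271-72918520, plus strand) are shown because their values separated the groups upward, and Srebf1 (chr11:60210472-60210721, minus strand, likewise of 3) because its values separated them downward.
Hmgcs1: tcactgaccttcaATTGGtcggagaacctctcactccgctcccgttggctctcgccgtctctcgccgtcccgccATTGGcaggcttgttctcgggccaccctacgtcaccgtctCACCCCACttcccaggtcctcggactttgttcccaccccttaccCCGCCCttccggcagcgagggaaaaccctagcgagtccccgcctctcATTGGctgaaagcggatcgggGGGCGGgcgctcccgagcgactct
Dhcr7: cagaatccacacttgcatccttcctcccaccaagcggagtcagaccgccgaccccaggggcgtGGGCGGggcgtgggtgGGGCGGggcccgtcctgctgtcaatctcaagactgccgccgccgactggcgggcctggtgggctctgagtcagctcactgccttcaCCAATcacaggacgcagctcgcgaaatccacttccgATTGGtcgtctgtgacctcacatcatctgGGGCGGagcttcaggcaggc
Nsdhl: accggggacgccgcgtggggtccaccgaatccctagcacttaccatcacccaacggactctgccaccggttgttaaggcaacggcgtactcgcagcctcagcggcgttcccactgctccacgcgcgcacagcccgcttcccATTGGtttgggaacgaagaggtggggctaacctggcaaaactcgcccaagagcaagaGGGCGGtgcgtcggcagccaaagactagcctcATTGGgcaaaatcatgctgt
Srebf1: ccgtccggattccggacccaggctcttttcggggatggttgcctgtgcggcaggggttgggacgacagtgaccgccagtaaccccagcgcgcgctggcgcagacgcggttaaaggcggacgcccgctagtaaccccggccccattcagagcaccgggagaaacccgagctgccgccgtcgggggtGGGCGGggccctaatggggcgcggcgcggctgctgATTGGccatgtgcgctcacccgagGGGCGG

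Of the 32 members, 25 had a promoter in the table. The NF-Y box was found in 15 of 16 SREBP targets (93.8%), against 37.5% of all 27025 genes with a promoter, and the Sp1 box also in 15 of 16, against 35.4%. Over all 25 members each was found in 20 (80%). Some genes have several windows, and over single windows of this length the shares were 33.8% and 32.7%. The sterol element core was searched in the letters of the low-density lipoprotein receptor type. Among the 25 members searched it was found in Hmgcs1 and Acat2 alone. These are 2 of 16 SREBP targets (12.5%), against 2.98% of all genes. The LXR repeat was found in 0 of 25 members and in 0.0148% of all genes. Only the exact letters of each motif were searched. Those of the LXR repeat are so rare that their absence does not show a lack of LXR sites in the members. Absence of the sterol element core, likewise, does not show a lack of sterol elements. Abcg1, Fdft1, Fdps, Scd1, Scd2, Sqle and Stard4 had no promoter to search. The background was all genes and not those expressed here, so the contrast is not shown to be a trait of SREBP targets. A match is a description of letters and not a measured binding site.

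On the arrays 85.4% to 93.0% of probes were detected. Mean blank spots were at intensities of 53.0 to 59.7 on the WT arrays and 56.2 to 63.4 on the Cav3.1 KO arrays. Values below are log2 intensities after normalisation, and a positive difference means a higher level in Cav3.1 KO. The slope that relates scan gain 1 to scan gain 3, given in each file header, lay unevenly between the groups. It was 0.244 to 0.247 on WT replicates 1, 2 and 4 and Cav3.1 KO replicate 1, and 0.235 or 0.236 on the other 4 arrays. The slope from gain 1 to gain 2 split the arrays alike but in reverse, at 0.478 to 0.480 against 0.485 or 0.486. What the slopes reflect is not stated. Below, a higher gain slope is that to gain 3. The probe for the targeted gene, Cacna1g, differed by -0.08 (SE 0.0508, limma adjusted p 0.816), and the sources used here do not give where it lies relative to the deletion, so it does not check the genotype. Of the granule neuron markers used to check the tissue, Calb1 was bright and Prox1 was dim, at spot intensities of 65.0 to 75.9. Of all probes, 61 passed the threshold of 0.05 on limma's adjusted p, or 0.288%, with 0.199% higher and 0.0898% lower in Cav3.1 KO.

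None of the 28 tested members passed that threshold, and the lowest adjusted p of a member was 0.069. The differences ran from -0.13 for Srebf1 to 0.25 for Dhcr7, and the 95% intervals of 23 of the 28 included 0. Before adjustment, 5 members had a limma p under 0.05, which were Dhcr7, Nsdhl and Hmgcs1 upward and Srebf1 and Nr1h3 downward, where 8.1% of all probes did, 3.76% upward and 4.34% downward. The groups did not overlap for 3 members, Dhcr7, Nsdhl and Srebf1, against 4.95% of all probes. The widest limits of any member's interval were 0.758-fold and 1.34-fold on this scale, which understates the change of dim genes because of the offset of 50.

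**Figure D1:**
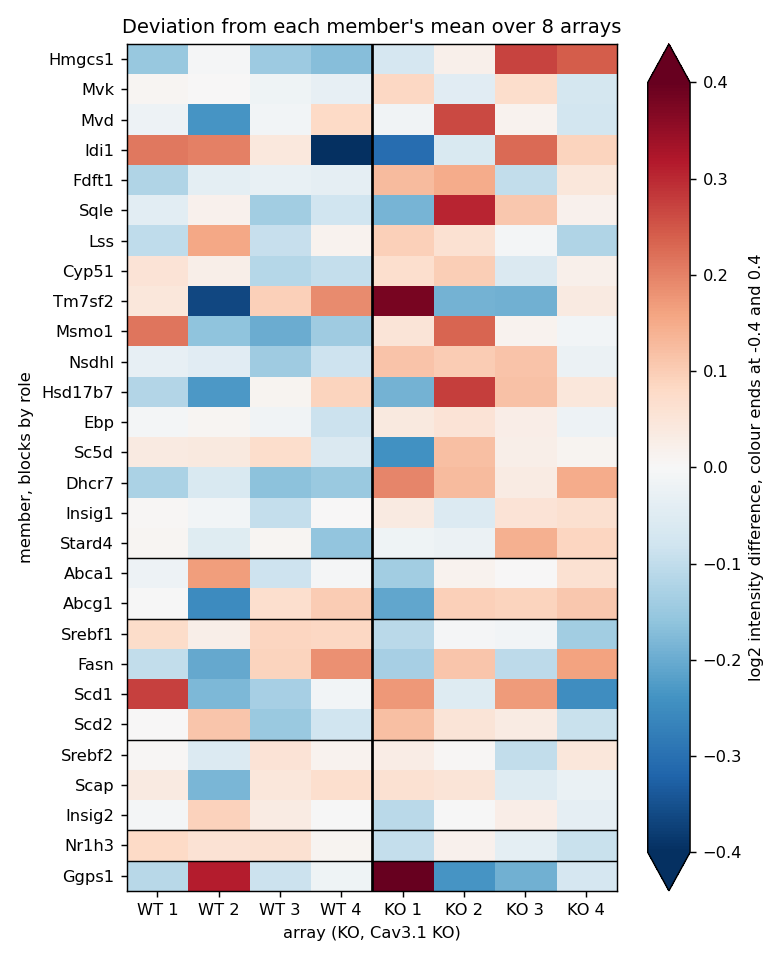
Deviation of each of the 28 tested members (rows, in blocks by role) from its own mean over the 8 arrays (columns, WT left and Cav3.1 KO right), in log2 intensity. Red stands for higher and blue for lower, with Dhcr7 red on all Cav3.1 KO arrays and Srebf1 blue on Cav3.1 KO replicates 1 and 4.

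Most SREBP targets of the cholesterol pathway lay slightly higher in Cav3.1 KO after quantile normalisation. Of 17 tested, 15 were higher and 2 lower, with a median difference of 0.09, where 49.3% of all probes were higher and their median was -0.00078. The count and the median were smaller under some other scalings, as was the median of all probes. With arrays centred on their medians in place of quantile normalisation 11 of 17 were higher and the median was 0.04. The authors' value table gave the same count and a median of 0.06. Over all probes the median was -0.017 with centred arrays and -0.041 in the value table. After blank subtraction 15 of 17 were higher, with a median of 0.13. Of the 17, 0 were called by limma in either direction and 3 had an unadjusted p under 0.05, all upward. The mean over the 17 targets was 7.88, 7.85, 7.84 and 7.82 on WT replicates 1 to 4 and 7.90, 7.98, 7.94 and 7.92 on Cav3.1 KO replicates 1 to 4. These means did not overlap after quantile normalisation, where Cav3.1 KO minus WT was 0.087. They did not overlap after blank subtraction (0.16) or with a normexp offset of 16 (0.11) either. With centred arrays they ran from 7.79 to 7.95 in WT and from 7.80 to 8.01 in Cav3.1 KO (0.035). In the value table they overlapped too (0.064). With the scan gain slope as a block 15 of the 17 were still above WT, with a median of 0.07. Without Cav3.1 KO replicates 2 and 3, whose thalamus and habenula markers were highest, 12 of 17 were. WT replicates 1 and 2, the next highest in those markers, stayed in that fit, so it does not balance the tissue content.

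Among the first steps, from acetyl units to squalene and lanosterol, 6 of 7 tested genes were higher, with a median of 0.09. Hmgcs1, the cytosolic synthase that makes HMG-CoA and whose promoter holds the letters of the sterol element core, was 8.07, 8.22, 8.08 and 8.05 in WT and 8.16, 8.25, 8.50 and 8.47 in Cav3.1 KO. The 2 highest arrays were Cav3.1 KO replicates 3 and 4, and the lowest Cav3.1 KO array lay below the highest WT array. The difference was 0.23 (SE 0.0812, 95% interval 0.048 to 0.42). It did not pass (limma adjusted p 0.444), and the exact permutation p was 0.0571. It was 0.04 among the 4 arrays with the higher gain slope and 0.32 among the other 4. A second, dimmer probe for Hmgcs1 differed by 0.04 (SE 0.0906, limma adjusted p 0.987), so the 2 probes gave unlike sizes.

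Sqle, the squalene epoxidase, was 8.58, 8.64, 8.49 and 8.55 in WT and 8.44, 8.93, 8.74 and 8.65 in Cav3.1 KO. The highest and the lowest value both came from Cav3.1 KO, so the groups overlapped fully, and the difference of 0.12 (SE 0.0944, limma adjusted p 0.89) was no larger than that spread. Without Cav3.1 KO replicates 2 and 3 it was -0.02. Fdft1, squalene synthase, differed by 0.11 (SE 0.0556, limma adjusted p 0.707), with Cav3.1 KO replicate 3 within the WT range. The diphosphate decarboxylase Mvd differed by 0.09, mevalonate kinase (Mvk) by 0.02, lanosterol synthase (Lss) by 0.01 and the isomerase Idi1 by -0.03, with limma adjusted p-values from 0.937 to 0.997. Without Cav3.1 KO replicate 2, the highest array for both genes, Mvd differed by 0.02 and Sqle by 0.04, and without replicates 2 and 3 Mvd differed by 0.0026. The directions of Mvk and Lss turned with centred arrays and in the value table. Idi1 varied widely within both groups, from 7.90 to 8.51 in WT and from 8.00 to 8.53 in Cav3.1 KO.

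The steps after lanosterol included the 2 members that separated the groups upward. Of 8 tested genes 7 were higher, with a median of 0.10, and 2 of them did not overlap, where 2.42% of all probes separated the groups in that direction. Dhcr7, the reductase of the last step to cholesterol, was 6.05, 6.12, 6.01 and 6.03 in WT and 6.37, 6.30, 6.21 and 6.33 in Cav3.1 KO. Every Cav3.1 KO array lay above every WT array, by at least the gap from 6.12 to 6.21. The difference was 0.25 (SE 0.0409, 95% interval 0.157 to 0.345), and its limma adjusted p of 0.069 lay just outside the threshold. The exact permutation p was 0.0286, and no smaller value is possible with 4 arrays a group. The probe was dim, with spot intensities of 66.3 to 90.8, and the size of its difference depended on how the background was treated. It was 0.95 after subtraction of the mean blank spot (adjusted p 0.12 by limma) and 0.49 in the authors' value table (adjusted p 0.0622 by limma). With a normexp offset of 16 in place of 50 it was 0.47 and passed, at a limma adjusted p of 0.0287. The difference was 0.31 among the 4 arrays of the higher gain slope, which held 1 Cav3.1 KO array, and 0.27 among the other 4, which held 1 WT array.

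Nsdhl, which removes a methyl group from the sterol ring, was 7.565, 7.551, 7.456 and 7.514 in WT and 7.712, 7.699, 7.711 and 7.575 in Cav3.1 KO. The groups did not overlap, although Cav3.1 KO replicate 4 came within 0.01 of the highest WT array. The difference was 0.15 (SE 0.0409, 95% interval 0.059 to 0.247), its limma adjusted p was 0.278 and its exact permutation p 0.0286. It was 0.17 and 0.21 within the arrays of higher and lower gain slope. Msmo1, the methyl sterol oxidase, ran from 9.80 to 10.21 in WT and from 9.99 to 10.23 in Cav3.1 KO and differed by 0.14 (SE 0.0976). Hsd17b7, the ketosteroid reductase of the pathway, differed by 0.13 (SE 0.105), Cyp51, the lanosterol demethylase, by 0.07 (SE 0.0509) and the isomerase Ebp by 0.05 (SE 0.0305). Their limma adjusted p-values were 0.806 to 0.92, and the groups overlapped for each. Tm7sf2, a sterol reductase, differed by 0.02 (SE 0.157) and the desaturase Sc5d by -0.04 (SE 0.0738), the latter with its lowest value of 7.79 on Cav3.1 KO replicate 1. The direction turned for Tm7sf2 and Ebp with centred arrays and in the value table, and for Hsd17b7 without Cav3.1 KO replicates 2 and 3, where its difference was -0.0095.

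The remaining SREBP targets serve sterol sensing and transport. Insig1, which holds the SREBP complex back and is itself a sensitive SREBP target, was 6.68, 6.66, 6.58 and 6.68 in WT and 6.71, 6.62, 6.73 and 6.74 in Cav3.1 KO. Cav3.1 KO replicate 2 lay within the WT range, with a difference of 0.05 (SE 0.0371, 95% interval -0.037 to 0.134, limma adjusted p 0.89). Stard4, a carrier of cholesterol between membranes, differed by 0.09 (SE 0.0521, limma adjusted p 0.762). Its spots were dim, at intensities of 72.8 to 97.4, and blank subtraction made the difference 0.27.

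**Figure D2:**
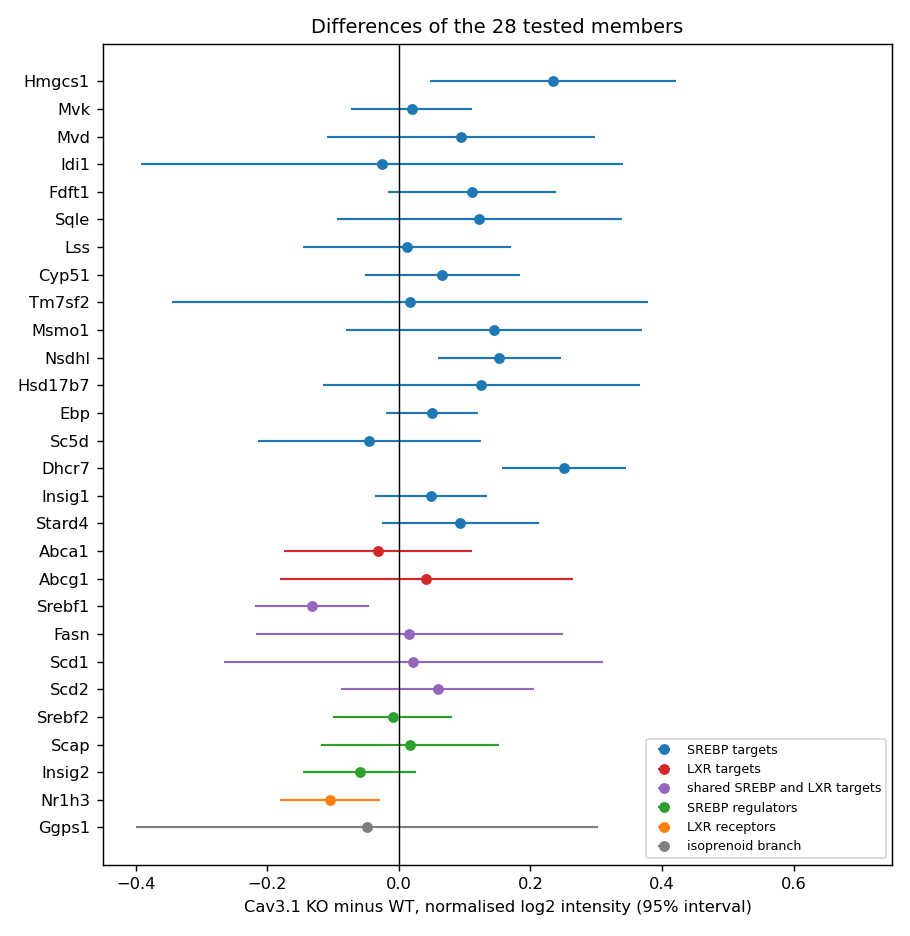
Difference of each tested member, Cav3.1 KO minus WT, in normalised log2 intensity, with limma's 95% interval (n = 4 per group), coloured by role. The blue SREBP targets lie mostly right of 0, from -0.04 for Sc5d to 0.25 for Dhcr7, and the intervals of Srebf1 and Nr1h3 lie left of 0.

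Of the 3 genes that control SREBP, 1 lay higher and 2 lower, with a median difference of -0.0096. Srebf2, which encodes the SREBP of the cholesterol genes, was 6.52, 6.46, 6.57 and 6.53 in WT and 6.54, 6.52, 6.41 and 6.56 in Cav3.1 KO, so that Cav3.1 KO minus WT was -0.0096 (SE 0.0395). The groups overlapped throughout. Scap, the escort protein, was 8.29, 8.08, 8.30 and 8.33 in WT and 8.32, 8.31, 8.21 and 8.23 in Cav3.1 KO, and differed by 0.02 (SE 0.0589), which was -0.05 with centred arrays and in the value table. WT held both the lowest array, replicate 2, and the highest, replicate 4, with every Cav3.1 KO array between them. Insig2, the second retention protein, was 8.54, 8.64, 8.58 and 8.55 in WT and 8.44, 8.55, 8.57 and 8.51 in Cav3.1 KO, with a difference of -0.06 (SE 0.0374). The limma adjusted p-values of the 3 regulators were 0.818 to 0.996.

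Of the 2 genes listed as targets of LXR alone, 1 lay higher and 1 lower, with a median difference of 0.0052. Their mean was 7.05, 7.02, 7.06 and 7.12 on WT replicates 1 to 4 and 6.89, 7.12, 7.11 and 7.15 on Cav3.1 KO replicates 1 to 4, with the groups overlapping. Abca1, the exporter that loads cholesterol onto apolipoproteins, was 6.31, 6.49, 6.24 and 6.32 in WT and 6.19, 6.34, 6.33 and 6.39 in Cav3.1 KO. Its highest value was on WT replicate 2 and its lowest on Cav3.1 KO replicate 1, and the difference was -0.03 (SE 0.0621, 95% interval -0.174 to 0.111, limma adjusted p 0.986). Its spots were dim too, at 73.0 to 96.0, and blank subtraction made the difference -0.09. Abcg1, the exporter to lipid-bearing particles, was 7.80, 7.55, 7.87 and 7.91 in WT and 7.60, 7.90, 7.89 and 7.91 in Cav3.1 KO. One array in each group, WT replicate 2 and Cav3.1 KO replicate 1, lay well below the rest, and the difference of 0.04 (SE 0.0971, 95% interval -0.181 to 0.265) had a limma adjusted p of 0.989. It was -0.0085 with centred arrays and -0.06 with the gain slope as a block. The median of the 2 LXR targets was -0.03 with centred arrays, -0.05 in the value table and -0.05 with the gain slope as a block, where 0 of 2 lay higher, so no direction is given for it. The median of the 17 SREBP targets was 0.09, but the intervals of both LXR targets include 0.09, and no test sets the lists against each other.

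Of the 4 targets that SREBP and LXR share, 3 lay higher and 1 lower, with a median difference of 0.02 that was -0.05 with centred arrays and in the value table. Srebf1, which encodes the SREBP of fatty acid synthesis, was 6.995, 6.946, 7.01 and 7.006 in WT and 6.814, 6.917, 6.912 and 6.784 in Cav3.1 KO. All Cav3.1 KO arrays lay below all WT arrays, as 2.53% of all probes did, with replicates 1 and 4 lowest. The difference was -0.13 (SE 0.0377, 95% interval -0.219 to -0.046), its limma adjusted p was 0.316 and its exact permutation p 0.0286. It was -0.17 within the arrays of higher gain slope and -0.14 within the others, and both blank subtraction and the value table gave -0.24.

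The fatty acid enzymes overlapped between the groups. Fatty acid synthase, Fasn, was 8.05, 7.94, 8.24 and 8.33 in WT and 8.01, 8.26, 8.04 and 8.31 in Cav3.1 KO, and differed by 0.02 (SE 0.101, limma adjusted p 0.997). Each group had 2 arrays above 8.2 and 2 at or below 8.05. The stearoyl-CoA desaturases, which introduce the first double bond into fatty acids, were measured by a probe each. Scd1 was 9.81, 9.36, 9.41 and 9.53 in WT and 9.71, 9.48, 9.71 and 9.29 in Cav3.1 KO, and differed by 0.02 (SE 0.125). Scd2, the main form of the brain, was 11.52, 11.63, 11.37 and 11.44 in WT and 11.64, 11.57, 11.55 and 11.43 in Cav3.1 KO, and differed by 0.06 (SE 0.0637). The 2 genes are close relatives, and whether either probe also reports the other was not tested. The signs of Fasn, Scd1 and Scd2 turned with centred arrays, at -0.04, -0.06 and -0.04, so no direction is given for them.

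Of the LXR receptors, Nr1h3, encoding LXR-alpha, was measured and was dim, at spot intensities of 71.9 to 89.0. It was 6.335, 6.312, 6.316 and 6.267 in WT and 6.159, 6.272, 6.215 and 6.165 in Cav3.1 KO. The lowest WT array, replicate 4, lay just below replicate 2 of Cav3.1 KO, and no other pair overlapped. The difference was -0.10 (SE 0.0328, 95% interval -0.18 to -0.029), its limma adjusted p was 0.379 and its exact permutation p 0.0571. Blank subtraction made it -0.34. Microglia, which belong to the macrophage lineage in which LXR-alpha is well known, had 10 of 10 tested markers lower in Cav3.1 KO, with WT list means of 7.85 to 8.04 against 7.80 to 7.92, and their part in the value of Nr1h3 was not tested. Of those 10 markers limma called 0, and 3 had an unadjusted p under 0.05. Ggps1, which makes the geranylgeranyl group for protein prenylation, differed by -0.05 (SE 0.153) on its brighter probe and by 0.12 (SE 0.053) on its second, with limma adjusted p-values of 0.995 and 0.631.

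**Figure D3:**
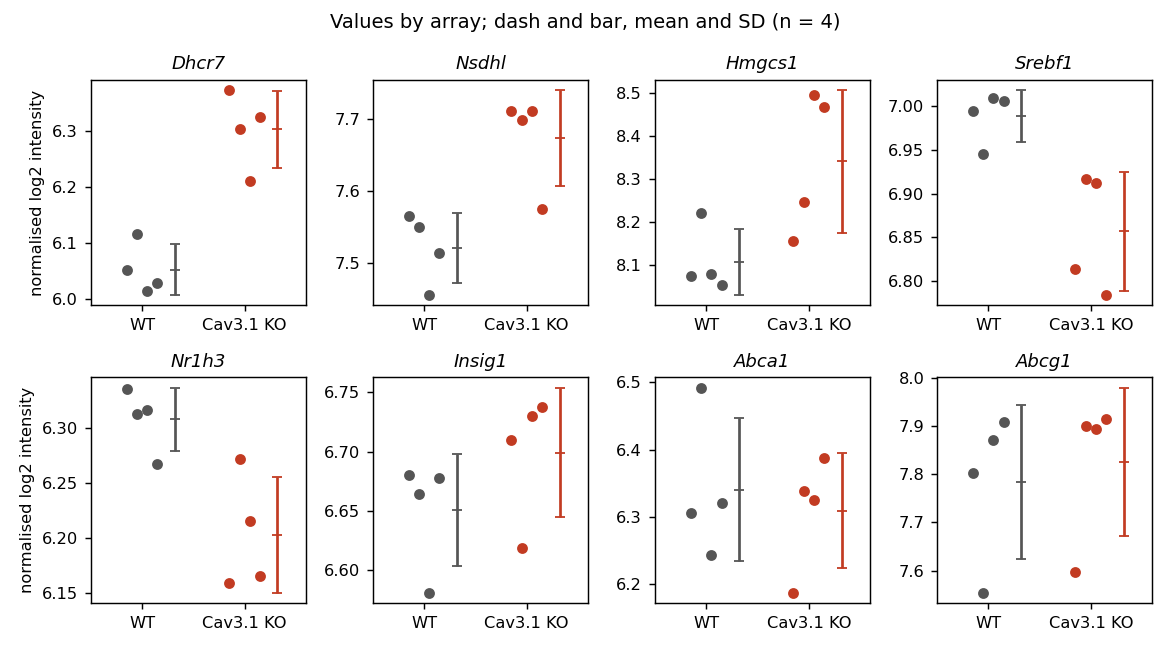
Normalised log2 intensity of 8 members on each array (points, WT grey and Cav3.1 KO red), with mean and SD at the side (n = 4 per group); each panel has its own axis, which does not start at 0. Dhcr7, Nsdhl and Srebf1 show no overlap, Hmgcs1 and Nr1h3 overlap narrowly, and Insig1, Abca1 and Abcg1 overlap.

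Other genes of the pathways, outside the 32, gave no call either. Of 27 tested, 12 were higher and 15 lower, with a median of -0.007, and 0 passed by limma. An unadjusted limma p under 0.05 was found for 4, with 2 upward and 2 downward, where 8.1% of all probes had one. Among 11 other genes of fatty acid synthesis, 6 were higher and 5 lower. The phosphatidate phosphatase Lpin1 had the smallest p of these and differed by 0.15 (SE 0.031, limma adjusted p 0.158). It was higher on all Cav3.1 KO arrays than on any WT array, as 2.42% of all probes were. Of 4 tested genes of sterol synthesis and SREBP processing, 1 was higher and 3 lower, led by Erg28, an anchor of the demethylation enzymes, at -0.15 (SE 0.0655, limma adjusted p 0.645). Of 6 other LXR genes, 2 were higher and 4 lower, led by the exporter Abcg4 at 0.13 (SE 0.078, limma adjusted p 0.805). In the list of sterol turnover, with 3 of 6 higher, the oxysterol hydroxylase Cyp7b1 differed by -0.50 (SE 0.201, limma adjusted p 0.569), with wide spread in both groups.

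The cell types that make much of the lipid of the brain were followed by their markers. Of 11 tested oligodendrocyte and myelin markers, 2 were higher and 9 lower in Cav3.1 KO, and limma called 0, with an unadjusted p under 0.05 for 2. Their mean ran from 10.02 to 10.31 in WT, and among Cav3.1 KO arrays from 9.77 to 10.43, lowest on Cav3.1 KO replicates 1 and 4 and highest on replicate 2. Of 12 astrocyte markers 7 were higher and 5 lower, with WT means of 9.38 to 9.45 against 9.38 to 9.46, and Gjb6, a connexin gene of astrocytes, was called (0.38, limma adjusted p 0.0269). Thalamus and habenula markers averaged 7.45 and 7.43 on replicates 2 and 3 of Cav3.1 KO. They averaged 7.14 on both WT replicates 1 and 2, and 6.67 to 6.79 on the other arrays. The choroid plexus and ependyma mean ran from 6.44 to 7.39 in WT and from 6.18 to 7.39 in Cav3.1 KO. Endothelial markers were higher for 4 and lower for 4 of 8, with Cldn5 called lower, and granule neuron markers were higher for 3 and lower for 7 of 10, with C1ql2 called lower. The part of this tissue content in the members' values was not tested. Without Cav3.1 KO replicates 2 and 3, Dhcr7, Nsdhl and Srebf1 differed by 0.30, 0.12 and -0.19. That fit kept WT replicates 1 and 2 and does not even out the tissue content. In it 0 of 11 oligodendrocyte, 0 of 7 choroid plexus and ependyma and 4 of 10 thalamus and habenula markers were higher in Cav3.1 KO.

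**Figure D4:**
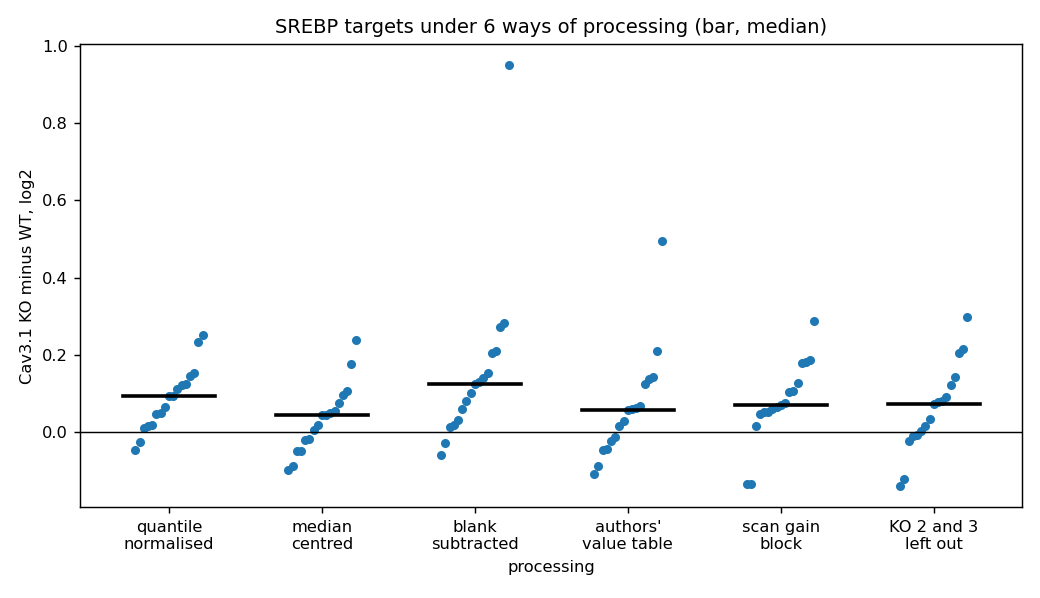
Differences of the 17 tested SREBP targets (points, sorted; bar, median), Cav3.1 KO minus WT on a log2 scale, under 6 ways of processing. The medians were 0.09 after quantile normalisation, 0.04 with centred arrays, 0.13 after blank subtraction and 0.06 in the value table, and the point far above the rest, at 0.95 and 0.49, is Dhcr7.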

How the data were processed

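RNA from 8 dentate gyrus samples was amplified, labelled with Cy5 and hybridised to TORAY chips, per the labels' protocols. The deposited scanner files give a median spot intensity in the red channel, not normalised, per the file headers. How the 3 scan gains were merged is not stated there. The authors' value table holds a linear intensity with a median of 25 on every array, which was a straight line of the scanner value with 0 within 0.18 units of the mean blank spot (its method is not stated); it was tested as log2(value + 10).

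Intensities of all spots were corrected with normexp (offset 50, fitted to the spot intensities alone, since the background column followed its own spot), and log2 values of 23473 probes were quantile normalised. Probes above the 95th percentile of blank spots on at least 4 arrays and without a bad flag were tested, 21150 in all. The group difference was fitted per probe with limma 3.58.1 (R 4.3.3), adjusted by Benjamini-Hochberg over all probes tested. Exact two-sided permutation tests covered all 70 arrangements. The fit was tested on simulated data. The number of arrays limits the precision. Alternatives were the scaling, background (an offset of 16, or blank subtraction with a floor of 10), filter, value table, blocks and left-out arrays.

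All 32 members are named by role, with values on every array for those without overlap, the regulators, the LXR genes, Hmgcs1, Sqle, Fasn, Scd1, Scd2 and the largest differences; of other lists, called genes and the smallest p. The members, lists and this rule were chosen with earlier results of these data known. The gain slope block, the fit without Cav3.1 KO replicates 2 and 3, the count of SREBP targets higher in Cav3.1 KO under each setting and the median of the shared targets were added after seeing the data. Promoters came from RefSeq tables.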

Additional observations from a re-analysis of the deposited data

Results flagged for a closer look

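Of 56 groups of 4 arrays checked among the 28 members, 7 held an array far from the other 3, where chance gives about 1 in 20 groups. In WT these were Hmgcs1 at 8.22 on replicate 2 (the others 8.05 to 8.08), Scap at 8.08 on replicate 2 (8.29 to 8.33), Fdft1 at 8.75 on replicate 1 (8.83 to 8.84), Msmo1 at 10.21 on replicate 1 (9.80 to 9.85) and Insig1 at 6.58 on replicate 3 (6.66 to 6.68). In Cav3.1 KO they were Nsdhl at 7.575 on replicate 4 (7.70 to 7.71) and Abcg1 at 7.60 on replicate 1 (7.89 to 7.91).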

How the results depend on the processing

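The number of members called was 0 under every alternative but 1, a normexp offset of 16, where it was 1, Dhcr7 (0.47, limma adjusted p 0.0287). Its adjusted p was 0.0556 to 0.217 with single arrays left out. The number of probes called, 61, was 33 after blank subtraction, 8 with the replicate block, 7 on the 6 chips of the first serial numbers, 23 with the scan gain slope as a block, 17 without Cav3.1 KO replicates 2 and 3, and 16 to 49 with 1 array left out (37 without WT replicate 1, 26 without WT replicate 3, 16 without WT replicate 4, and 29, 33 and 34 without Cav3.1 KO replicates 2, 3 and 4). Of the calls 42 were higher and 19 lower, against 30 and 32 with centred arrays and 35 and 31 in the value table. The labels do not say whether the replicate numbers pair the arrays. Deviations of same-numbered arrays correlated at -0.11 to 0.011, and 0 of 8 arrays correlated best with their own number. These values showed no sign of pairing, but so few arrays cannot exclude it.

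Of the 17 SREBP targets, 14 or 15 were higher with 1 array left out, and 11 with centred arrays and in the value table. Their median was 0.044 with centred arrays, 0.125 after blank subtraction, 0.058 in the value table and 0.054 to 0.097 with 1 array left out. That of all members, 0.032, was -0.026 with centred arrays, -0.027 in the value table, 0.058 with the gain slope as a block and 0.037 to 0.052 with 1 array left out. That of the shared targets, 0.019, was -0.053, -0.048 and, with 1 array left out, -0.042 to 0.032. That of the LXR targets, 0.0052, was -0.027 with centred arrays, -0.051 in the value table, -0.052 with the gain slope as a block and -0.022 to 0.064 with 1 array left out.

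With centred arrays and in the value table the sign turned for Mvk (-0.018 and -0.022), Lss (-0.0496 and -0.044), Tm7sf2 (-0.049 and -0.045), Ebp (-0.019 and -0.012), Abcg1 (-0.0085 and -0.0082), Fasn (-0.03998 and -0.041), Scd1 (-0.063 and -0.056), Scd2 (-0.044 and -0.033) and Scap (-0.0504 and -0.049). Fasn was -0.0031 on the 6 chips of the first serial numbers. With the gain slope as a block the sign turned for Abcg1 (-0.064), Fasn (-0.064) and Ggps1 (0.13), the last also when its probes were averaged (0.036). Without Cav3.1 KO replicates 2 and 3 it turned for Sqle (-0.023), Lss (-0.0074), Hsd17b7 (-0.0095), Abcg1 (-0.029), Scd1 (-0.026), Srebf2 (0.033) and Ggps1 (0.14). With 1 array left out the differences ranged over 0 for Mvk (-0.0053 to 0.046), Idi1 (-0.165 to 0.072), Lss (-0.0196 to 0.066), Tm7sf2 (-0.107 to 0.084), Sc5d (-0.092 to 0.029), Abca1 (-0.064 to 0.019), Abcg1 (-0.035 to 0.119), Fasn (-0.0494 to 0.0796), Scd1 (-0.034 to 0.117), Srebf2 (-0.029 to 0.022), Scap (-0.03998 to 0.043) and Ggps1 (-0.19 to 0.048). Over all probes the median difference was -0.00078 after quantile normalisation, -0.017 with centred arrays and -0.041 in the value table. The part of this shift, or of any other cause, in the sign changes was not tested. Blank subtraction moved the differences of the dim probes of Dhcr7 (0.95), Nr1h3 (-0.34), Stard4 (0.27) and Abca1 (-0.09) by more than 1.5 times. It did so too for Insig1 (0.10), Srebf1 (-0.24), Srebf2 (-0.025), Hsd17b7 (0.20) and Mvk (0.032).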
